A study of Gallus gallus with 25 samples.

Results

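Chromosomes 4 and 5 are the smallest of the chicken macrochromosomes. The contact domains described here are all those that the 4 automatic domain lists of the series place on these chromosomes, 896 of the 5602 domains in the lists, with 528 on chromosome 4 and 368 on chromosome 5. A contact domain is a stretch of chromosome whose loci contact each other more often than they contact the neighbouring stretches, and its ends are called boundaries. Each list comes from a single pooled Hi-C map of nuclei taken from wild-type oocytes of healthy chickens. The LBC (lampbrush chromosome) lists come from oocytes 1 to 2 mm in diameter, with 14 nuclei in LBC type 1 and 6 in LBC type 2. The post-LBC lists come from oocytes 4 to 7 mm in diameter, with 4 nuclei in post-LBC type 1 and 1 nucleus in post-LBC type 2. The study assigned the type to each nucleus after quality control of its library. Type 1 nuclei had a smaller share of contacts between chromosomes than type 2 nuclei. The type is thus a class of Hi-C map and not a treatment. The study calls the origin of the types unclear. It finds it more plausible that LBC type 2 nuclei precede the lampbrush stage than that a somatic cell was mixed in. It takes post-LBC type 2 as likely later than post-LBC type 1, and used only type 1 in its main domain analyses. The type 2 lists may thus not span the same stages as those of type 1. By list, in the order LBC type 1, LBC type 2, post-LBC type 1 and post-LBC type 2, chromosomes 4 and 5 held 249 of 1546, 256 of 1582, 171 of 1132 and 220 of 1342 domains.

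Lampbrush chromosomes are the extended meiotic bivalents of growing bird and amphibian oocytes. Compact chromatin granules called chromomeres lie along their axes, and pairs of lateral loops, covered by RNA polymerases and nascent transcripts, extend from them. As the oocyte grows further, transcription falls, the loops retract and the chromosomes shorten. The macrochromosomes of birds are poorer in genes and in GC than the many small microchromosomes. Chicken chromosome 4 joins both kinds, because its short arm derives from the fusion of an ancestral microchromosome that remains a separate chromosome, 4A, in most other birds. The first 20 Mb of chromosome 4 were therefore set against the rest of it, which has no counterpart on chromosome 5.

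Each list gives where a domain starts and ends on the chicken assembly ASM2420605v2, and no contact count, strength or value of single nuclei. All positions below are on that assembly. A boundary is given by the last base of the domain on its left, or of the gap where a gap lies on its left. A group is 1 map, and the domains within it are not replicates of each other. Intervals on medians and shares therefore cover the counting of domains or boundaries only, and say nothing of the spread between nuclei or hens. The domain caller needs a scale setting, which the study tuned towards a preset mean domain size in single oocytes, its use for the pooled maps being not given in the sources used here, and the 4 maps differ in the number of nuclei behind them. Differences in domain number and length between lists cannot be told apart from these 2 features of the maps.

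Chromosome 4 was covered by 143 domains in LBC type 1, 152 in LBC type 2, 100 in post-LBC type 1 and 133 in post-LBC type 2. The median domain was 624 kb long in LBC type 1 (95% interval 576 to 672 kb) and 592 kb in LBC type 2 (560 to 608 kb). It was 896 kb in post-LBC type 1 (736 to 1008 kb) and 640 kb in post-LBC type 2 (576 to 736 kb). The interval of post-LBC type 1 lay above those of both LBC lists, while those of the other 3 lists overlapped. Domains over 1 Mb numbered 10 in LBC type 1, 5 in LBC type 2, 40 in post-LBC type 1 and 16 in post-LBC type 2. These were 6.99, 3.29, 40 and 12.0% of the domains, against 10.1, 4.80, 36.0 and 19.5% over all chromosomes. The longest domain of each list lay in a different place. It was chr4:87200001-88512000 (1312 kb) in LBC type 1, chr4:61104001-62288000 (1184 kb) in LBC type 2 and chr4:39696001-41424000 (1728 kb) in post-LBC type 1. In post-LBC type 2, 2 domains of 1408 kb tied, chr4:12320001-13728000 and chr4:16848001-18256000, both in the first 20 Mb. The shortest domains were 208 to 224 kb, just above the 200 kb under which no domain is listed. Among them, LBC type 1 and LBC type 2 shared a short domain that ended at 30272000, chr4:30064001-30272000 (208 kb) in the former and chr4:30048001-30272000 (224 kb) in the latter. LBC type 1 held a second one of 208 kb, chr4:36976001-37184000. The shortest of post-LBC type 1 was chr4:90416001-90624000 and that of post-LBC type 2 was chr4:52768001-52976000, both of 208 kb.

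Chromosome 5 was covered by 106, 104, 71 and 87 domains in the same order of lists. The median domain was 544 kb in LBC type 1 (95% interval 512 to 576 kb) and also 544 kb in LBC type 2 (528 to 608 kb). It was 832 kb in post-LBC type 1 (736 to 912 kb) and 640 kb in post-LBC type 2 (560 to 720 kb). As on chromosome 4, only the interval of post-LBC type 1 stood clear of both LBC lists. Domains over 1 Mb numbered 0 in LBC type 1, 1 in LBC type 2, 20 in post-LBC type 1 and 10 in post-LBC type 2, or 0, 0.962, 28.2 and 11.5% of the domains, to be read against the same shares over all chromosomes. The longest of LBC type 1 were chr5:31872001-32864000 and chr5:46560001-47552000, both of 992 kb, and that of LBC type 2 was chr5:41424001-42432000 (1008 kb). The longest of post-LBC type 1 were chr5:17488001-19040000 and chr5:39984001-41536000, and that of post-LBC type 2 was chr5:43568001-45120000, all 3 of 1552 kb. The shortest were chr5:23984001-24208000 (224 kb) in LBC type 1, chr5:16464001-16672000 (208 kb) in LBC type 2 and chr5:37440001-37648000 (208 kb) in post-LBC type 1, and 3 domains of post-LBC type 2 tied at 256 kb.

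**Figure D1:**
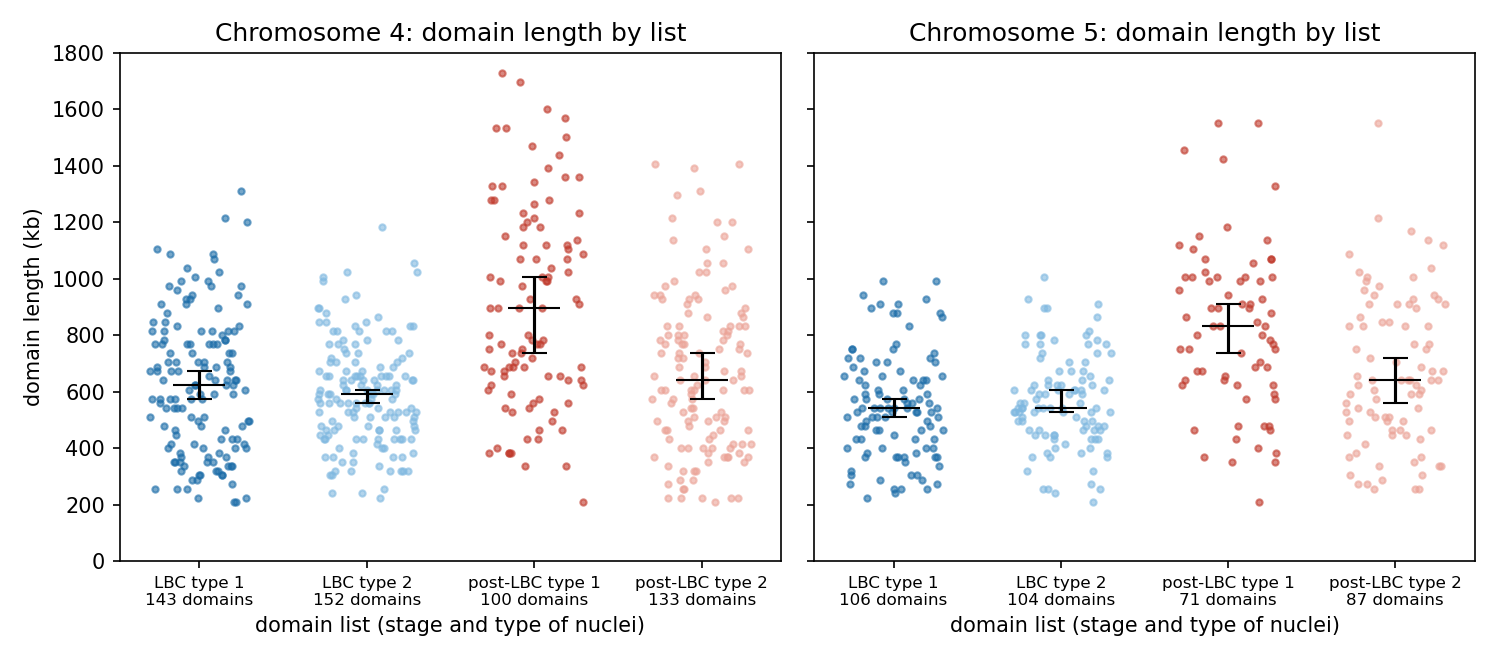
Length of every contact domain of chromosomes 4 and 5 (kb) in the 4 automatic lists, with 1 point per domain. Black bars are the median and its 95% interval, which covers the counting of domains only. The post-LBC type 1 medians, 896 and 832 kb, lie above the intervals of both LBC lists on both chromosomes.

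Set beside the rest of the genome, the medians of chromosome 4 were about as near to those of the 3 larger macrochromosomes as to those of all chromosomes. Chromosomes 1 to 3 together had medians of 656, 608, 896 and 688 kb, and all chromosomes together had medians of 592, 608, 864 and 688 kb. Domains over 1 Mb made up 15.7, 5.46, 39.4 and 19.2% on chromosomes 1 to 3, more than on chromosome 4 in every list but post-LBC type 1. Of the 28 chromosomes in the automatic lists, chromosome 4 ranked 5 by median length in LBC type 1 and 7 in post-LBC type 1, but 15 in LBC type 2 and 26 in post-LBC type 2. Chromosome 5 ranked 16, 26, 13 and 26, and several of these ranks were tied. The rank of neither chromosome was the same across the lists, and with 1 map per group no test of a chromosome against the others was made.

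The number of domains fell and their length rose from the LBC list to the post-LBC list on both chromosomes and in both types, but by unequal amounts. In type 1 the post-LBC median was 1.44 times the LBC median on chromosome 4 (bounds from the 2 medians' intervals, 1.09 to 1.75) and 1.53 times on chromosome 5 (1.28 to 1.78). With the manually refined list in place of the automatic LBC type 1 list, these ratios turned below 1, to 0.677 and 0.825. The post-LBC list remained automatic there, so these 2 ratios mix stage with hand refinement. In type 2 the ratios were 1.08 (0.947 to 1.31) and 1.18 (0.921 to 1.36), whose bounds include 1. The ratios over all chromosomes were 1.46 in type 1 and 1.13 in type 2, so those of chromosomes 4 and 5 lay near them. The 2 LBC lists were close in length, with a type 2 over type 1 ratio of 0.949 (0.833 to 1.06) on chromosome 4 and 1 (0.917 to 1.19) on chromosome 5. The 2 post-LBC lists were further apart, with ratios of 0.714 (0.571 to 1) and 0.769 (0.614 to 0.978), and the post-LBC type 2 map rests on 1 nucleus.

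Domain length was then followed along each chromosome in windows of 10 Mb, with each domain placed by its middle and windows of at least 5 domains kept. On chromosome 4 the fourth window, from 30 to 40 Mb, stood out at the lampbrush stage. It had the lowest median of the 9 windows in both LBC lists, 432 kb over 21 domains in LBC type 1 and 472 kb over 20 domains in LBC type 2. In post-LBC type 1 the same window held 10 domains with a median of 960 kb, which is 2.22 times the LBC type 1 value and the highest ratio of the 9 windows. In post-LBC type 2 it held 13 domains with a median of 608 kb, 1.29 times the LBC type 2 value and again the highest ratio of the 9 windows. The LBC median divides these ratios, so a window picked out by its low LBC median leans towards a high ratio. The window from 20 to 30 Mb had the highest median in LBC type 1, 816 kb over 13 domains, and the lowest type 1 ratio, 1.04. It also had the highest median in post-LBC type 2, 744 kb over 14 domains, where the window from 80 to 90 Mb had the same median over 12 domains. The highest medians of the other lists lay from 70 to 80 Mb, with 656 kb over 15 domains in LBC type 2 and 1104 kb over 9 domains in post-LBC type 1, where the window from 80 to 90 Mb had the same median. The lowest medians of the post-LBC lists lay elsewhere than those of the LBC lists, from 0 to 10 Mb in type 1 (712 kb over 12 domains) and from 40 to 50 Mb in type 2 (504 kb over 18 domains).

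The change within the window from 30 to 40 Mb can be read domain by domain, because 2 of its boundaries, at 30272000 and 34400000, had the same position in all 4 lists. The 4128 kb between them were divided into 8 domains in LBC type 1, with lengths in kb from left to right of 592, 304, 784, 816, 272, 320, 336 and 704. LBC type 2 also made 8 domains of them, of 384, 368, 672, 672, 512, 560, 560 and 400 kb. Post-LBC type 1 made 5 domains, of 592, 896, 1568, 384 and 688 kb, and post-LBC type 2 made 5 of 560, 928, 608, 976 and 1056 kb. The outer ends of this stretch are the same by the way it was picked, while the inner division differed in all 4 lists. To its left, the 6240 kb from 24032001 to 30272000, which also had both ends in the same position in all lists, were divided into 9, 10, 7 and 8 domains. The fall in number between the stages was therefore smaller there, from 9 to 7 and from 10 to 8, than in the stretch to its right, from 8 to 5 in both types. The 2 stretches between identical boundaries of chromosome 5 were longer. The 17728 kb from 17488001 to 35216000 held 32, 31, 21 and 27 domains, and the 21168 kb from 35216001 to 56384000 held 34, 36, 25 and 32, so the number fell in both types there as well. The stretches were looked at after the window medians were known.

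On chromosome 5, with 6 windows, the highest median in LBC type 1 was 672 kb (40 to 50 Mb, 15 domains) and the lowest 464 kb (10 to 20 Mb, 21 domains). In LBC type 2 the medians ran from 496 kb (20 to 30 Mb, 19 domains) to 592 kb, which the windows from 0 to 10 Mb and from 40 to 50 Mb shared. In post-LBC type 1 they ran from 736 kb (0 to 10 Mb, 13 domains) to 912 kb (10 to 20 Mb, 11 domains), and in post-LBC type 2 from 616 kb (20 to 30 Mb, 16 domains, and 50 to 60 Mb, 14 domains) to 704 kb (10 to 20 Mb, 13 domains). The window from 10 to 20 Mb was thus the lowest in LBC type 1 and the highest in both post-LBC lists, and its type 1 ratio of 1.97 was the highest on this chromosome. That ratio is divided by the lowest LBC type 1 median, which leans it towards a high value. The highest over the lowest median was 1.45, 1.19, 1.24 and 1.14 in the 4 lists on chromosome 5, and 1.89, 1.39, 1.55 and 1.48 on chromosome 4. The 2 chromosomes are not compared by these ratios, since a ratio of extremes grows with the number of windows, which was 6 on chromosome 5 and 9 on chromosome 4.

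The post-LBC median exceeded the LBC median in all 9 windows of chromosome 4 in type 1, by ratios of 1.04 to 2.22, and in 6 of 9 windows in type 2, with ratios of 0.9 to 1.29. On chromosome 5 it did so in all 6 windows in both types, by 1.24 to 1.97 in type 1 and by 1.08 to 1.29 in type 2. Between lists, the window medians of chromosome 4 gave the highest Pearson's r, 0.70, for the 2 LBC lists, with a Spearman's rho of 0.59 over 9 windows. The 2 type 1 lists gave the lowest, an r of -0.02 (rho 0.07). The other 4 pairs of lists on chromosome 4 gave r between 0.23 and 0.52 and rho between 0.18 and 0.68. The highest rho, 0.68, belonged to the pair of type 2 lists (r 0.52). A like order of windows was thus not limited to the LBC stage. On chromosome 5 the 6 pairs gave r between -0.61 and 0.38 over only 6 windows. The windows share 1 map per list, and these correlations are descriptions without a test.

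**Figure D2:**
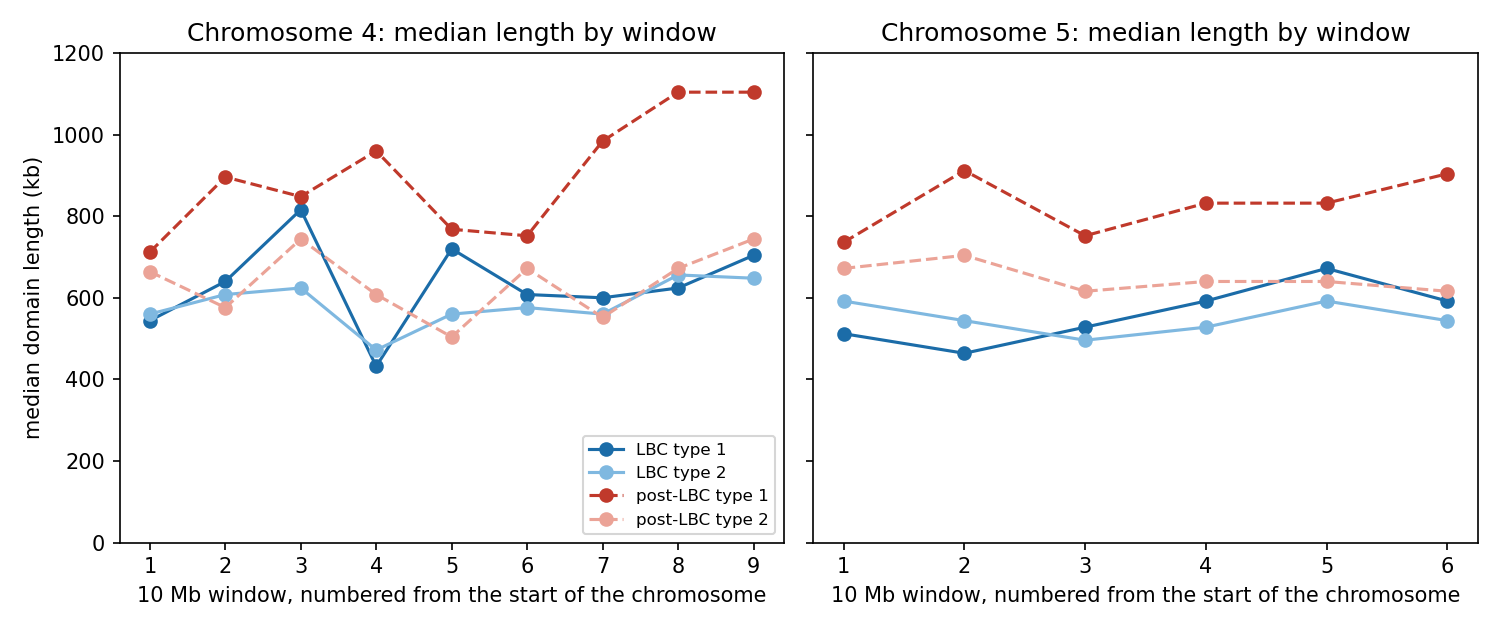
Median domain length (kb) in successive 10 Mb windows of chromosomes 4 and 5, numbered from the start of each chromosome. Solid blue lines are the LBC lists and dashed red lines the post-LBC lists. In window 4 of chromosome 4 both LBC lists are at their lowest, 432 and 472 kb, whereas post-LBC type 1 is at 960 kb.

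In the first 20 Mb of chromosome 4 the median domain was slightly shorter than in the rest of the chromosome in each of the 4 lists. The medians were 576 kb against 640 kb in LBC type 1 (31 and 112 domains) and 560 kb against 592 kb in LBC type 2 (33 and 119 domains). They were 784 kb against 896 kb in post-LBC type 1 (23 and 77 domains) and 608 kb against 656 kb in post-LBC type 2 (28 and 105 domains). The ratios of first to rest were 0.9, 0.946, 0.875 and 0.927, a mean log2 ratio of -0.13 ± 0.05 (SD, n = 4 maps). The direction was the same in 4 of 4 maps, but an exact two-sided sign-flip test over the maps gave p = 0.125, the smallest value that 4 maps allow, so the threshold of 0.05 was out of reach. The maps come from different nuclei but divide the same chromosome and share boundaries, so they are not 4 fully independent observations. The SD is likewise a spread over lists and not over nuclei or hens. Within each list the 95% intervals of the 2 medians overlapped, for example 656 to 992 kb and 736 to 1072 kb in post-LBC type 1. The difference rested on the median. With means in its place, the ratios were 0.977, 0.994, 0.922 and 1.09, so that post-LBC type 2 turned the other way, and the mean log2 ratio was -0.01 (exact p = 0.75).

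Domains over 1 Mb also gave no common pattern. They were 6 of 23 in the first 20 Mb against 34 of 77 in the rest in post-LBC type 1, and 6 of 28 against 10 of 105 in post-LBC type 2. In the LBC lists they were 2 of 31 against 8 of 112 and 0 of 33 against 5 of 119. The stage ratio of the medians was nearly equal on both sides, 1.36 in the first 20 Mb and 1.4 in the rest in type 1, and 1.09 and 1.11 in type 2. The boundary nearest to 20 Mb lay at 19664000 in LBC type 1, 19632000 in LBC type 2 and 19648000 in post-LBC type 1. In post-LBC type 2 it lay at 20176000, but that list had one at 19632000 as well, so the 4 lists shared a boundary there whose positions spanned 32 kb. The fusion point itself is not marked in the files, and the line at 20 Mb is a round position.

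**Figure D3:**
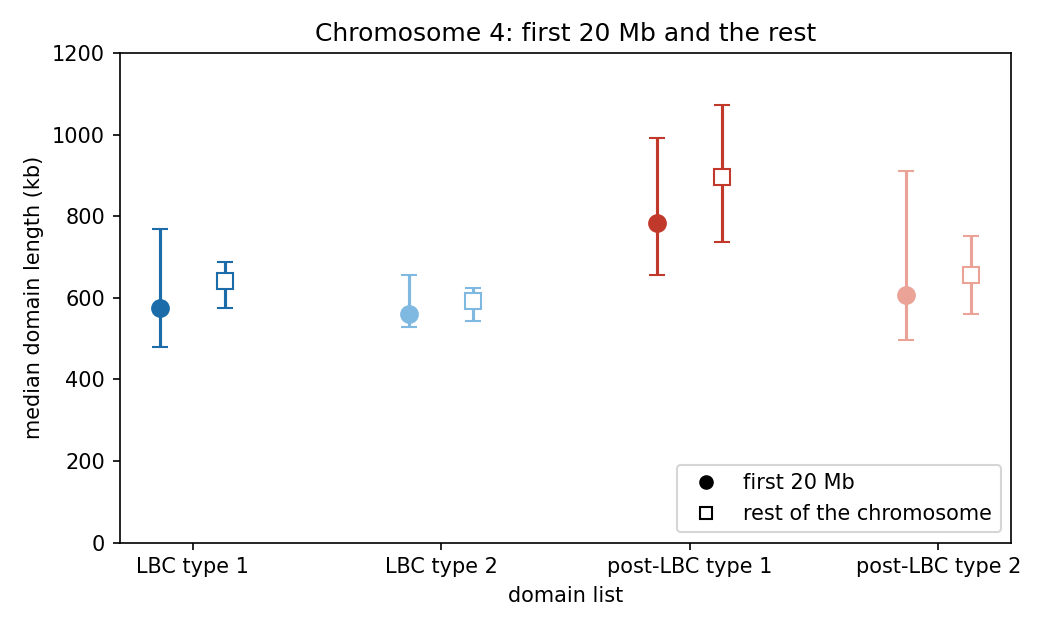
Median domain length (kb) on chromosome 4 in each list, for domains with their middle in the first 20 Mb (filled circles) and in the rest of the chromosome (open squares). Bars are 95% intervals of the median that cover the counting of domains only. The circle lies below the square in all 4 lists and the bars overlap in each.

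A boundary was counted as shared when the other list had a boundary within 80 kb, the distance used in the study. On chromosome 4, 33 of 151 boundaries of LBC type 1 had a counterpart in all 3 other lists, which is 21.9% (95% Wilson interval 16.0 to 29.1%) against 23.4% over all chromosomes. The counts were 30 of 159 in LBC type 2 (18.9%, against 22.4% over all chromosomes), 32 of 106 in post-LBC type 1 (30.2%, against 32.1%) and 33 of 147 in post-LBC type 2 (22.4%, against 26.0%). On chromosome 5 the counts were 29 of 114 (25.4%, interval 18.3 to 34.1%), 26 of 111 (23.4%), 28 of 77 (36.4%) and 28 of 96 (29.2%). All genome-wide shares lay within the intervals of both chromosomes, so chromosomes 4 and 5 shared boundaries about as often as the genome as a whole. In the first 20 Mb of chromosome 4, 8 of 34 LBC type 1 boundaries were shared by all lists, and 25 of 117 in the rest.

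For scale, a position on the 16 kb grid taken anywhere between the outermost LBC type 1 boundaries lay within 80 kb of a boundary of all 3 other lists at 5.86% of positions on chromosome 4 and at 7.37% on chromosome 5. For post-LBC type 1 these shares were 6.63% and 8.77%. They were higher for the type 2 lists, 9.01% and 11.0% for LBC type 2 and 8.36% and 9.93% for post-LBC type 2. Between pairs of lists, the closest were the 2 type 1 lists. On chromosome 4, 85 of 106 post-LBC type 1 boundaries (80.2%, interval 71.6 to 86.7%) had an LBC type 1 boundary within 80 kb and 44 had one in the very same position. On chromosome 5, 63 of 77 did (81.8%, 71.8 to 88.9%), 32 of them in the same position. Over all chromosomes the share within 80 kb was 75.3%. The share in the same position was 40.9% over all chromosomes, near the 41.5% of chromosome 4 and the 41.6% of chromosome 5. Of the span, 28.7% on chromosome 4 and 32.5% on chromosome 5 lay within 80 kb of an LBC type 1 boundary. The median distance from a post-LBC type 1 boundary to the nearest LBC type 1 boundary was 16 kb on both chromosomes, the width of 1 grid step. The type 2 lists were further apart. Of the post-LBC type 2 boundaries, 58 of 147 (39.5%, 31.9 to 47.5%) had an LBC type 2 boundary within 80 kb on chromosome 4 and 48 of 96 (50%, 40.2 to 59.8%) on chromosome 5, and the median distances were 112 and 88 kb. The share over all chromosomes was 44.5%, and 29.9 and 31.4% of the spans lay within 80 kb of an LBC type 2 boundary, so the type 2 value of chromosome 4 was not far above the share of the span.

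Seen from LBC type 1, the counts for the other lists lay closer together. Of its 151 boundaries on chromosome 4, 82 were in LBC type 2, 85 in post-LBC type 1 and 69 in post-LBC type 2. These were 54.3, 56.3 and 45.7%, against 29.9, 19.8 and 27.3% of the span within 80 kb of a boundary of those lists. Of its 114 boundaries on chromosome 5, 63 were in LBC type 2, also 63 in post-LBC type 1 and 57 in post-LBC type 2. These were 55.3, 55.3 and 50%, against 31.4, 21.96 and 27.5% of the span. On both chromosomes post-LBC type 1 thus stood furthest above its share of the span. Over all chromosomes the shares of boundaries were near these, 52.98, 54.91 and 47.6% in the same order. The boundaries of a list with no counterpart in any other list were fewest in post-LBC type 1, with 8 of 106 on chromosome 4 and 6 of 77 on chromosome 5. They were 29 of 151 and 19 of 114 in LBC type 1, 55 of 159 and 33 of 111 in LBC type 2, and 56 of 147 and 21 of 96 in post-LBC type 2. A list with fewer boundaries meets denser lists, so these shares depend on the number of boundaries in each list. Boundaries without any counterpart were not counted over all chromosomes, so these counts are not read as particular to chromosomes 4 and 5.

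**Figure D4:**
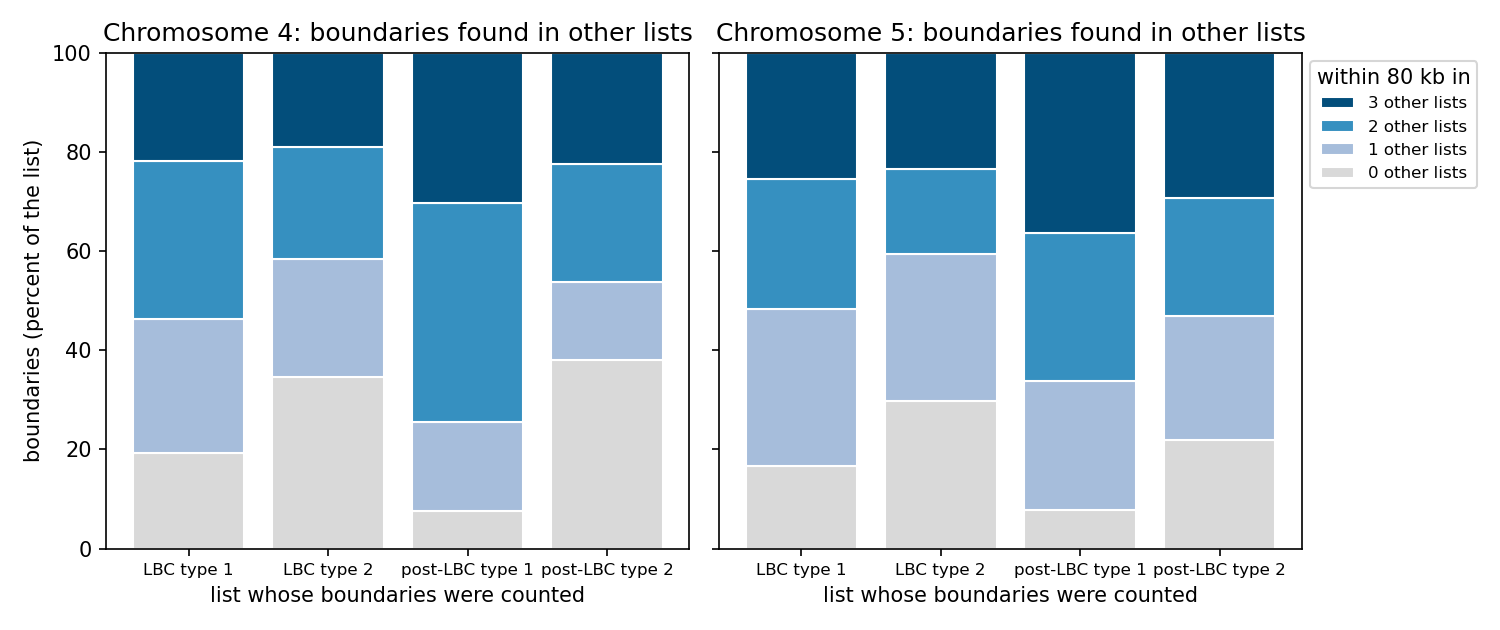
Share of the boundaries of each list (percent) that had a counterpart within 80 kb in 0, 1, 2 or 3 of the other lists, on chromosomes 4 and 5. Post-LBC type 1 has the smallest part with no counterpart, 8 of 106 and 6 of 77 boundaries, and the largest part with a counterpart in all 3 other lists, 32 of 106 and 28 of 77.

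The boundaries shared by all lists were often fixed to within a grid step or a few. Counted from LBC type 1, the positions in the 4 lists spanned a median of 32 kb on each chromosome. They spanned at most 16 kb at 12 of 33 sites on chromosome 4 and at 14 of 29 on chromosome 5. They were identical at 3 sites of each, at 24032000, 30272000 and 34400000 on chromosome 4 and at 17488000, 35216000 and 56384000 on chromosome 5. The next closest sites, with a spread of 16 kb, numbered 9 on chromosome 4 and 11 on chromosome 5. Neighbouring shared boundaries lay a median of 2184 kb apart on chromosome 4 and 2024 kb apart on chromosome 5. The longest stretch without one was chr4:70720001-85312000, 14592 kb long, and on chromosome 5 it was chr5:27232001-35216000, 7984 kb long. In the window from 70 to 80 Mb of chromosome 4, whose post-LBC type 1 median tied as the highest, 1 of 15 LBC type 1 boundaries was shared by all lists. In the first 10 Mb of chromosome 5, 9 of 23 were. Among these, 5888000, 6016000, 6736000 and 6784000 lay at the edges of gaps in all 4 lists. Both 6736000 and 6784000 were matched to the same post-LBC type 2 boundary, 6800000. Further along chromosome 5, the sites 56384000 and 56432000 were likewise both matched to the post-LBC type 2 boundary 56384000.

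Some of these sites lie at the edge of a gap that the lists leave between domains. Of the 33 sites of chromosome 4, 7 were at a gap in all 4 lists, and of the 29 sites of chromosome 5, 7 were at a gap or at the chromosome's outermost boundary in all 4. These include 2 of the 6 identical sites, 24032000 and 56384000. The other 4 identical sites, 30272000, 34400000, 17488000 and 35216000, were the border of touching domains in every list, as were 23 of 33 and 17 of 29 sites in all. Whether the gaps took part in fixing boundaries beside them was not tested.

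Whole domains were much more rarely kept than single boundaries, which follows at least in part from asking for a match at both ends. Of the LBC type 1 domains, 1 of 143 on chromosome 4 and 3 of 106 on chromosome 5 had both ends within 80 kb of the ends of a single domain in each other list, against 2.59% over all chromosomes. The domain of chromosome 4 was chr4:58240001-58912000, of 672 and 640 kb in the LBC lists (type 1 and type 2) and of 640 and 656 kb in the post-LBC lists. On chromosome 5 they were chr5:1200001-1664000 (464, 368, 432 and 432 kb in the same order), chr5:19024001-19936000 (912, 896, 896 and 928 kb) and chr5:23440001-23984000 (544, 672, 464 and 384 kb). None of the 4 had both ends in the same position in all lists. The last differed most in length, between 384 and 672 kb, although its ends stayed within the tolerance of the LBC type 1 ends.

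The comparison of the stages asks which borders between neighbouring LBC domains had no boundary in the post-LBC list of the same type. Here and below, a border is 1 position per pair of neighbouring domains, placed in the middle of any gap or overlap between them. A wide gap could thus count as an absent border although both its edges had boundaries in the other list. In type 1, 65 of 142 borders on chromosome 4 (45.8%, 95% Wilson interval 37.8 to 54.0%) and 50 of 105 on chromosome 5 (47.6%, 38.3 to 57.1%) had none within 80 kb, against 49.1% over all chromosomes. Of these, 63 and 50 lay inside a single post-LBC domain. In type 2, 101 of 151 (66.9%, 59.0 to 73.9%) and 61 of 103 (59.2%, 49.6 to 68.2%) had none, against 65.8% over all chromosomes. Both chromosomes were thus near the genome-wide share in both types. With only borders of touching domains, the shares were 45.2 and 48.0% on chromosomes 4 and 5 in type 1. In type 2 they were 66.9 and 60.8%. Within chromosome 4 the share was 13 of 31 in the first 20 Mb and 52 of 111 in the rest in type 1, and 22 of 33 and 79 of 118 in type 2.

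By window, the share of type 1 borders without a post-LBC boundary ran from 5 of 17 (50 to 60 Mb) to 12 of 21 (30 to 40 Mb) and 8 of 14 (80 to 90 Mb) on chromosome 4. The last count includes the middle of the gap chr4:85312001-85760000, whose edges both had post-LBC type 1 boundaries within 80 kb. On chromosome 5 it ran from 6 of 16 (30 to 40 Mb) to 13 of 21 (10 to 20 Mb). The windows with the highest shares include the 2 with the largest rise of the median, from 30 to 40 Mb of chromosome 4 and from 10 to 20 Mb of chromosome 5, 2 measures taken from the same borders. In the opposite direction, 21 of 99 post-LBC type 1 borders on chromosome 4 and 13 of 70 on chromosome 5 had no LBC type 1 boundary within 80 kb. For type 2 the opposite counts were 83 of 132 and 45 of 86, so that borders were absent about as often in either direction. The opposite direction was not counted over all chromosomes.

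Borders present in both LBC lists can be followed into both post-LBC lists. On chromosome 4, 74 of the 142 LBC type 1 borders were also in LBC type 2. Of these, 27 were in both post-LBC lists, 22 in neither, 7 were missing from post-LBC type 1 alone and 18 from post-LBC type 2 alone. On chromosome 5 there were 56 of 105, of which 24 were in both post-LBC lists, 19 in neither, 6 missing from type 1 alone and 7 from type 2 alone. No such counts were made over all chromosomes.

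Most post-LBC type 1 domains had both ends near LBC type 1 boundaries. Among single boundaries of post-LBC type 1, 80.2% on chromosome 4 and 81.8% on chromosome 5 had one within 80 kb. Matches at both ends are therefore frequent from the single boundaries alone, and they were not counted over all chromosomes in either type. Both ends lay within 80 kb of an LBC type 1 boundary in 63 of 100 domains on chromosome 4 and 45 of 71 on chromosome 5. By the middles of the LBC type 1 domains they held, 66 of the 100 domains held 1, 26 held 2, 7 held 3 and 1 held 4. On chromosome 5, 40 of the 71 held 1, 26 held 2, 3 held 3, 1 held 4 and 1 held none. The domain that held 4 on chromosome 4 was chr4:37312001-38672000 (1360 kb). It took in LBC type 1 domains of 432, 288, 256 and 512 kb, from 37184001 to 38672000, so that its right end was the same and its left end lay 128 kb inside. The one on chromosome 5 was chr5:17488001-19040000 (1552 kb), which covered LBC type 1 domains of 496, 240, 432 and 368 kb that ran from 17488001 to 19024000. Its left end is one of the identical sites and its right end moved by 1 grid step.

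In type 2 the post-LBC domains seldom matched LBC boundaries at both ends, in 13 of 133 cases on chromosome 4 and 17 of 87 on chromosome 5. By the middles of LBC type 2 domains, none held more than 3. On chromosome 4, 2 held 3, chr4:12320001-13728000 (1408 kb) and chr4:52976001-53952000 (976 kb). On chromosome 5, 3 did, chr5:26208001-27248000 (1040 kb), chr5:36208001-37424000 (1216 kb) and chr5:43568001-45120000 (1552 kb). The first and the last of these 5 were also among the longest domains of their list. They were not unions of whole LBC type 2 domains, since the one of 976 kb held the middles of domains of 704, 256 and 432 kb. In the order named, their left ends lay 32, 304, 192, 0 and 224 kb inside the outer ends of the domains held. Their right ends lay 192 and 112 kb inside, 16 kb beyond, and 224 and 96 kb inside.

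Domains covered 97.9 to 99.4% of the span between the outermost boundaries of both chromosomes, and the remaining gaps were few and recurred only in part. Chromosome 4 had 7, 6, 5 and 13 gaps between neighbouring domains in the 4 lists, and chromosome 5 had 7, 6, 5 and 8. The most gaps were in post-LBC type 2, the map of 1 nucleus. Several of these overlapped no gap of another list, for example chr4:36752001-36912000 (160 kb). The LBC type 1 gap chr5:37440001-37632000 (192 kb) lay where post-LBC type 1 had a domain of 208 kb, chr5:37440001-37648000. No domain of 200 kb or less is listed, and whether shorter domains left out of the lists account for such gaps was not tested. Of the 7 gaps of LBC type 1 on chromosome 4, 4 recurred in all lists, and 3 of the 7 on chromosome 5. The largest was chr4:85312001-85760000 in LBC type 1 and post-LBC type 2 (448 kb), and it was 464 kb long in LBC type 2 (chr4:85280001-85744000) and in post-LBC type 1 (chr4:85312001-85776000). The next lay near the end of the chromosome, at chr4:90624001-90880000 (256 kb), chr4:90560001-90896000 (336 kb), chr4:90624001-90960000 (336 kb) and chr4:90544001-90848000 (304 kb) in the 4 lists. Another, chr4:18608001-18848000, reached 240 kb in LBC type 1 and was 96, 112 and 96 kb in the others. On chromosome 5, 1 gap was longer than 200 kb, chr5:54368001-54576000 in post-LBC type 1 (208 kb), and it was 80 kb long in both LBC lists, while post-LBC type 2 had none there.

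The study placed FISH probes, fluorescent probes that show where a locus lies on the spread lampbrush chromosome, in 2 regions of chromosome 4. From 50 to 53 Mb, LBC type 1 had 5 domains by their middles, of 944, 320, 352, 368 and 736 kb, and LBC type 2 had 5, of 576, 576, 240, 832 and 384 kb. Post-LBC type 1 had 3, of 928, 1072 and 704 kb, and post-LBC type 2 had 5, of 784, 496, 640, 736 and 208 kb. The outer boundaries of the LBC type 1 set, 50032000 and 52752000, were in all other lists. Of its inner ones, 50976000 and 52016000 were in both post-LBC lists but not in LBC type 2, 51296000 was in LBC type 2 alone, and 51648000 was in none. The 3 short domains of LBC type 1 between 50976001 and 52016000 thus faced a single domain of 1072 kb in post-LBC type 1, chr4:50960001-52032000. The manually refined LBC type 1 list also had a single domain over them, chr4:50032001-52030000 (1998 kb), without the boundaries 50976000, 51296000 and 51648000. The study read a contact domain with a wide cross pattern here at the lampbrush stage, and its probes marked a long transcription loop.

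From 70 to 73 Mb, LBC type 1 had 4 domains, of 576, 624, 1024 and 768 kb, and LBC type 2 had 4, of 432, 1008, 848 and 496 kb. Post-LBC type 1 had 2, of 464 and 1200 kb, and post-LBC type 2 had 6, of 752, 656, 368, 224, 368 and 784 kb. Here post-LBC type 2 had more domains than either LBC list. Of the LBC type 1 boundaries, 70720000 was in all other lists, 72368000 was in both post-LBC lists, 71344000 was in post-LBC type 2 alone and 70144000 was in none. The manually refined LBC type 1 list had 1 domain with its middle here, chr4:68464001-72375000 (3911 kb). The study read fewer apparent contact domains in this region than either LBC list has, but more than 1. Its probes marked transcription loops as well as chromomeres.

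The study also refined the LBC type 1 domains by hand. That list has fewer and longer domains, 65 on chromosome 4 with a median of 1323 kb and 57 on chromosome 5 with a median of 1008 kb. Of these, 28 and 15 were longer than 1344 kb, the N50 of the whole manual list, the length above which domains hold 50% of the summed length. A manual domain held a mean of 2.18 automatic LBC type 1 domains on chromosome 4 and 1.86 on chromosome 5. The longest was chr4:68464001-72375000 (3911 kb), which runs through most of the probed region from 70 to 73 Mb, and on chromosome 5 it was chr5:3296001-5880000 (2584 kb). In the first 20 Mb of chromosome 4 the median was 1200 kb over 15 domains, against 1344 kb over 50 in the rest, a ratio of 0.893 that lies among those of the automatic lists.

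Against this list the stage comparison looked different. No hand-refined post-LBC list was available, so a hand-refined list is set here beside automatic ones. Stage and hand refinement cannot be told apart in these values. The post-LBC type 1 medians, 896 and 832 kb, were below the manual ones. Of the 64 manual borders on chromosome 4, 5 (7.81%, 95% Wilson interval 3.38 to 17.0%) had no post-LBC type 1 boundary within 80 kb, and 6 of 56 (10.7%, 5.00 to 21.5%) on chromosome 5. The same borders were absent from LBC type 2 in 29 of 64 and 26 of 56 cases, and from post-LBC type 2 in 26 of 64 and 18 of 56 cases. The manual borders were thus nearer to the post-LBC type 1 list than to the LBC type 2 list of the same oocyte size. Absent manual borders were not counted over all chromosomes. Of the LBC type 1 boundaries shared by all 4 automatic lists, 20 of 33 on chromosome 4 and 25 of 29 on chromosome 5 had a manual boundary within 80 kb, against 38 of 118 and 31 of 85 of its other boundaries. These counts were not made over all chromosomes either. Among the shared boundaries, 7 on each chromosome lay at a gap or at the outermost boundary in all 4 lists. The manual list is a revision of a list from the same map, and is therefore no independent map.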

How the data were processed

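Hi-C contacts were measured in single oocyte nuclei. Adapters were cut by the authors (cutadapt 4.1), and alignment to ASM2420605v2 used juicer 1.5.6 with a mapping quality cutoff of 30. The unbalanced contacts (cooler 0.10.2) of a group's nuclei were merged. The authors called domains with lavaburst 0.2.0. The deposited lists hold coordinates, and all automatic ones lie on a 16 kb grid and hold only domains over 200 kb. This grid differs from the resolution that the study states for domain calling, and the automatic lists are labelled as adjusted. How they were adjusted is not given in the sources used here. Depth is not in the files, so precision is limited by the number of domains. Domains were placed by their middle, and boundaries were matched within 80 kb. Medians carry order-statistic and shares Wilson intervals at 95%. Counting functions were tested on simulated data. Python 3.11.15, numpy 2.4.6, scipy 1.17.1, pandas 2.3.3 and matplotlib 3.10.9 were used. Named are the longest and shortest domains, gaps of at least 200 kb, the windows of highest and lowest median, the boundaries of smallest spread, the post-LBC domains holding most LBC domains, and the domains of the probed regions. Members, windows and named items were chosen with earlier results of these data known. The stretches between identical boundaries were added after the values were seen. No genome or gene annotation of this assembly was used here, so no sequence, GC content or gene is given.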

Additional observations from a re-analysis of the deposited data

How the results depend on the processing

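No paired analysis was possible because each group is 1 pooled list and carries no replicate number. The mean log2 ratio over the maps of the first 20 Mb of chromosome 4 to the rest stayed below 0 under the 12 alternatives, though not in every map under each of them, running from -0.17 (domains under 320 kb dropped) to -0.01 (means) and, leaving out 1 map at a time, from -0.15 to -0.11, and p from 0.125 to 0.75. The manually refined LBC type 1 list changed most values, while the lists set beside it remained automatic. It had 65 and 57 domains on chromosomes 4 and 5 with medians of 1323 and 1008 kb, turned the type 1 stage ratio below 1 (0.677 and 0.825), raised the LBC type 1 share of boundaries found in all lists to 35.9%, and lowered the share of type 1 borders without a post-LBC boundary to 9.17%. The other alternatives of the counts, medians and stage ratios stayed within 1.5 times the count or within the interval of the value. Over chromosomes 4 and 5 together, the share of boundaries found in all lists was 23.4, 20.7, 32.8 and 25.1% in the order LBC type 1, LBC type 2, post-LBC type 1 and post-LBC type 2. It was 10.2, 10.4, 15.3 and 11.5% with a tolerance of 20 kb, 13.2, 13.3, 20.8 and 15.6% with 40 kb, and 36.2, 33.7, 53.6 and 39.9% with 160 kb. With 1 other map left out it ran from 28.7 to 37.0% in LBC type 1, from 23.0 to 32.6% in LBC type 2, from 35.5 to 53.6% in post-LBC type 1 and from 27.6 to 40.7% in post-LBC type 2, since fewer matches are then asked for. The share of borders without a post-LBC boundary, 46.6% in type 1 and 63.8% in type 2, was 57.9 and 83.1% at 20 kb, 76.8% in type 2 at 40 kb, and 38.9 and 48.4% at 160 kb. The mean correlation of the windows of chromosome 5 over the 6 pairs of lists rose from 0.05 to 0.42 with length-weighted means, while that of chromosome 4 dropped from 0.35 to 0.13 with these, to 0.23 with 5 Mb windows and to 0.22 with means. Keeping only boundaries between touching domains, an alternative added after seeing the data, gave shares found in all lists of 19.7, 16.9, 28.3 and 21.3% and shares without a post-LBC boundary of 46.4 and 64.5%. The number of nuclei behind each map, 14, 6, 4 and 1, limits how far the lists can be compared.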
